A study of Mus musculus with 4 samples.

Results

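Sesn1, Sesn2, Sesn3 and Ddit4 are genes that cells switch on under stress and whose proteins restrain mTORC1, the protein kinase complex that couples growth to nutrients. They are described here with 4 genes of the machinery they act on, Mtor, Rptor, Tsc1 and Tsc2. The 8 genes were taken by their symbols from a table of 15255 genes, and each symbol matched 1 row.

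mTORC1 drives protein synthesis and holds back autophagy when amino acids, energy and growth signals are sufficient. Sestrins bind the GATOR2 complex, and Sestrin 2 also senses leucine; when Sestrins are bound, GATOR2 no longer blocks GATOR1, and the Rag GTPases stop bringing mTORC1 to the lysosome. The protein of Ddit4, also called REDD1, acts on the other arm, through the complex of TSC1 and TSC2 that switches off the GTPase Rheb. In blood-forming tissue, mTORC1 is known for its part in stem cell quiescence: loss of Tsc1 in the mouse drives haematopoietic stem cells into cycle. Sesn2 and Ddit4 are known targets of ATF4 and p53, Sesn1 of p53, Sesn3 of FOXO factors and Ddit4 also of hypoxia-inducible factor.

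The cells were LSK cells, freshly isolated from mouse bone marrow and sorted as lineage-negative, Sca-1+ and c-Kit+, a fraction that contains the stem cells of blood and their early progeny. The knockout group (Afg3l2 KO) had 2 libraries and the wild-type group (Afg3l2 WT) 2 libraries, numbered 1 and 2 in each group. Afg3l2 encodes part of a protease that controls protein quality in the inner membrane of mitochondria. The labels used here do not give the age of the mice, the allele, any Cre driver, or whether libraries came from separate animals, so p-values measure only the spread between these libraries. The libraries held 16522338 to 17271936 reads assigned to genes, and values are deposited CPM, read counts scaled to a library size adjusted for composition. Afg3l2 itself was at 36.7 and 30.1 CPM in knockout libraries, against 79.6 and 86.0 CPM in wild-type libraries, a difference in log2(CPM + 1) of -1.29 ± 0.16 (SE; limma adjusted p = 0.0115), so its RNA was lower but present. Replicates 1 and 2 differed in sex-linked RNA in both groups: Xist was at 15.7 and 1004 CPM in knockout libraries and at 0.113 and 889 CPM in wild-type libraries. Ddx3y, on the Y chromosome, was at 72.4 and 3.50 CPM in knockout libraries and at 83.4 and 5.04 CPM in wild-type libraries, so the libraries of a group were not repeats of 1 source. For this reason differences are also given within each replicate number. The sort markers Kit (254 and 223 CPM in knockout, 341 and 243 CPM in wild-type libraries) and Ly6a, the gene of Sca-1 (95.4 and 76.9 CPM in knockout, 57.1 and 61.6 CPM in wild-type libraries), were well detected. Across all genes, 369 of 15255 (2.42%) passed the limma test at an adjusted p under 0.05, 1.58% higher and 0.839% lower in the knockout.

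Of the 8 genes, Sesn2 and Ddit4 rose in the knockout and 0 fell; with the replicate number as a term in the fit, Sesn1 was also called, as lower (limma adjusted p = 0.0150), and 11.7% of all genes passed. Sesn1 and Sesn3 had lower means in the knockout and Mtor, Rptor and Tsc2 higher means, none of them past the threshold without that term, and Tsc1 differed least. In 5 of the 8 genes the groups did not overlap, against 54.1% of all genes, and 4 of the 8 had an unadjusted p under 0.05, against 20.8% of all genes. The median difference in log2(CPM + 1) of the 8 genes was 0.33, against -0.02 for all genes. These are RNA levels: neither the proteins nor the activity of mTORC1 were measured, and in bulk RNA fewer cells of a type and less RNA per cell cannot be told apart.

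Sesn2, which encodes the leucine-sensing Sestrin, showed the largest difference of the 8 genes. Its RNA stood at 61.8 and 88.9 CPM in knockout libraries 1 and 2, against 7.98 and 12.1 CPM in wild-type libraries 1 and 2. Both knockout libraries lay far above both wild-type libraries, and replicate 2 was the higher one in each group. The means were 75.3 ± 19.2 CPM in the knockout and 10.04 ± 2.92 CPM in the wild type (SD, n = 2 each), a ratio of 7.5. The difference in log2(CPM + 1) was 2.79 ± 0.25 (SE; 95% interval 2.20 to 3.38; limma adjusted p = 0.0060), and it placed Sesn2 at rank 23 of 15255 genes from the highest. Within replicate number 1 the ratio was 7.74 and within number 2 it was 7.34, so the libraries of either number gave nearly the same fold. Reads behind these values numbered 1040 and 1473 in knockout and 141 and 204 in wild-type libraries. Without knockout replicate 2 the difference was 2.53 and no longer passed (limma adjusted p = 0.137), a fit in which 0 of all 15255 genes passed and 1209 had an unadjusted p under 0.05; edgeR's quasi-likelihood test with all libraries called 287 genes, Sesn2 among them (adjusted p = 0.0134).

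Ddit4 (REDD1), the inhibitor that works through TSC2, was the other member that rose. It was at 40.6 and 58.4 CPM in knockout libraries, against 17.8 and 13.9 CPM in wild-type libraries. The groups did not overlap, and replicate 2 was the higher library in the knockout but the lower one in the wild type. Means were 49.5 ± 12.6 CPM in the knockout and 15.9 ± 2.79 CPM in the wild type (SD, n = 2 each), a ratio of 3.12. The difference in log2(CPM + 1) was 1.57 ± 0.23 (SE; 95% interval 1.04 to 2.10; limma adjusted p = 0.0179), at rank 148 of all genes. The 2 replicate numbers gave unlike folds, 2.28 within number 1 and 4.21 within number 2. The call was lost without knockout replicate 1 (difference 1.83, limma adjusted p = 0.0643) and also without knockout replicate 2 (difference 1.31, limma adjusted p = 0.254), and limma-voom gave an adjusted p = 0.0593. Without knockout replicate 1, 64 of all genes passed and 2606 had an unadjusted p under 0.05; without knockout replicate 2, 0 passed and 1209 did.

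**Figure D1:**
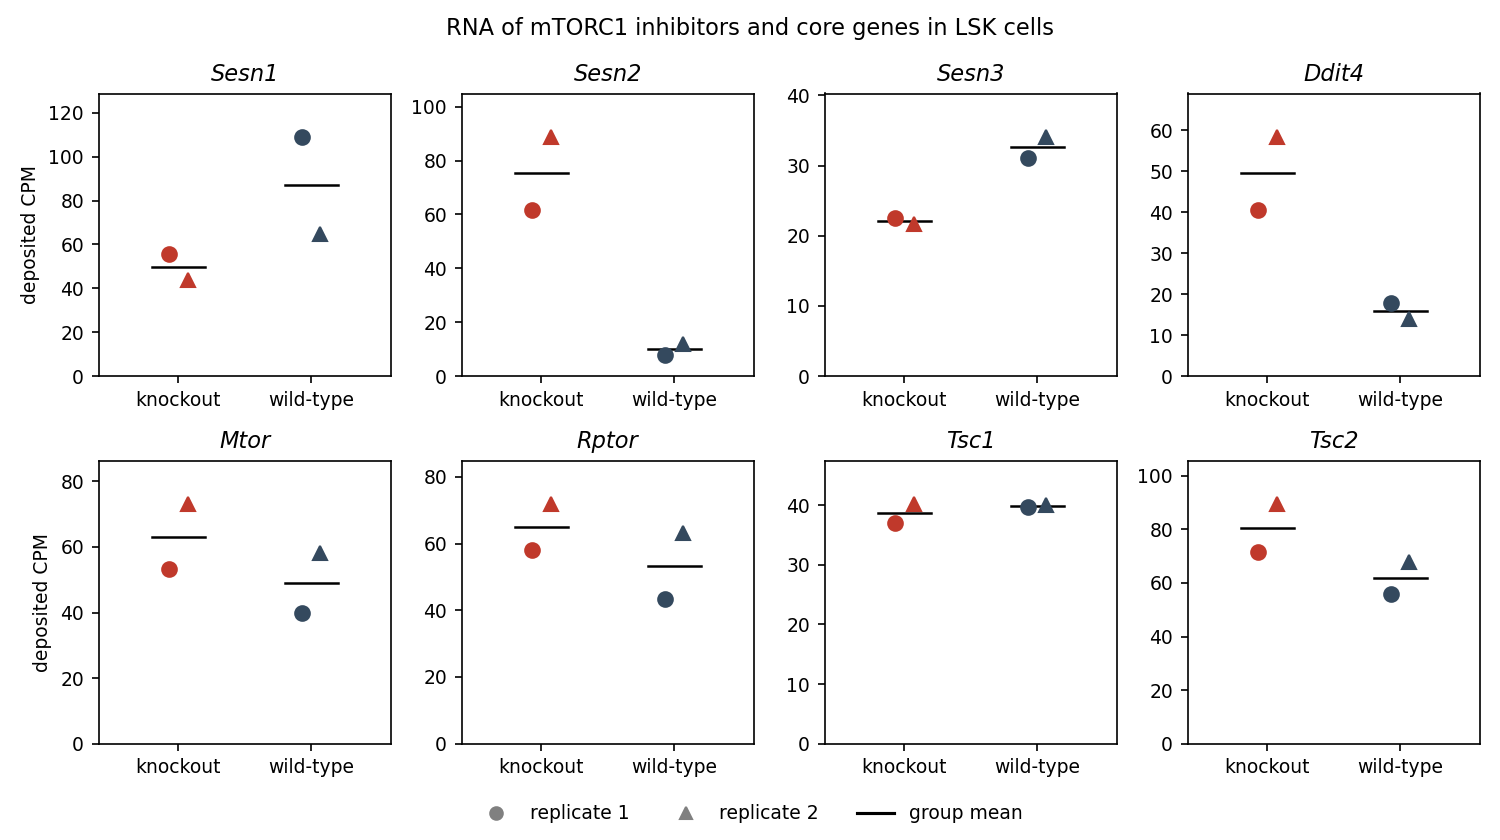
Deposited CPM of each gene on a linear axis that starts at 0, with 1 point per library (circles replicate 1, triangles replicate 2), knockout in red, wild-type in dark blue and a line at the group mean. Sesn2 sat at 61.8 and 88.9 CPM in knockout and 7.98 and 12.1 CPM in wild-type libraries, while the points of Tsc1 lay between 37.1 and 40.2 CPM in all 4 libraries.

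Sesn1, the Sestrin best known as a p53 target, was lower in both knockout libraries. It stood at 55.5 and 44.0 CPM in knockout libraries, against 109 and 64.8 CPM in wild-type libraries. The groups did not overlap, but the wild-type libraries differed from each other by a ratio of 1.68. The means were 49.7 ± 8.12 CPM in the knockout and 87.0 ± 31.3 CPM in the wild type (SD, n = 2 each), and the difference in log2(CPM + 1) of -0.76 ± 0.26 (SE; 95% interval -1.39 to -0.13) did not pass (limma adjusted p = 0.180). Within number 1 the ratio of knockout to wild type was 0.508, and within number 2 it was 0.678. With the replicate number as a term in the fit, Sesn1 passed; of the 8 genes, 3 passed in that fit, Sesn1, Sesn2 and Ddit4. It also passed without wild-type replicate 2 (difference -1.13, limma adjusted p = 0.00827), while without wild-type replicate 1 the difference was -0.39 (limma adjusted p = 0.409).

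The summed level of the 10 genes listed as LSK markers was 1035 and 673 CPM in knockout libraries, against 1773 and 1006 CPM in wild-type libraries, highest in wild-type replicate 1 and lowest in knockout replicate 2, as Sesn1 was. Single markers differed in this: Ly6a was lowest in wild-type replicate 1 and Slamf1 highest in knockout replicate 2. The summed level was higher in knockout replicate 1 (1035 CPM) than in wild-type replicate 2 (1006 CPM), whereas Sesn1 was lower there (55.5 against 64.8 CPM). By limma 0 of these 10 markers passed, and 2 had an unadjusted p under 0.05, Flt3 (difference -1.19) and Ly6a (0.52). Of the erythroid markers, Klf1 was at 95.9 and 144 CPM in knockout libraries and 44.8 and 49.7 CPM in wild-type libraries (limma adjusted p = 0.0239), and Gata1 at 118 and 159 CPM in knockout libraries and 67.1 and 58.5 CPM in wild-type libraries (limma adjusted p = 0.0253), both higher in the knockout. Plasmacytoid dendritic markers were summed at 231 and 212 CPM in knockout libraries and 338 and 357 CPM in wild-type libraries, and by limma 2 of the 4 passed, Siglech and Tcf4, both lower. Bst2 and Ccr9 also had lower values in both knockout libraries without passing. Monocyte and macrophage markers were summed at 140 and 62.2 CPM in knockout libraries and 99.0 and 188 CPM in wild-type libraries, and by limma 2 of the 5 passed, Csf1r and Cx3cr1, both lower. Of the other 3, which did not pass, Itgam differed by -1.52, C1qa by 2.29 and C1qb by 2.31. Neutrophil markers varied most within a group, at 648 and 426 CPM in knockout libraries and 72.0 and 1450 CPM in wild-type libraries, and B cell markers were summed at 32.7 and 195 CPM in knockout libraries and 108 and 330 CPM in wild-type libraries. T cell markers were summed at 23.8 and 47.7 CPM in knockout libraries and 13.0 and 32.1 CPM in wild-type libraries, and megakaryocyte markers at 535 and 435 CPM in knockout libraries and 434 and 368 CPM in wild-type libraries. No marker named here was at 0 in any library, and the part of these cell types in the levels of the 8 genes was not tested.

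Sesn3, the FOXO-regulated Sestrin, varied least within a group among the 4 inhibitors. It was at 22.6 and 21.7 CPM in knockout libraries, against 31.1 and 34.1 CPM in wild-type libraries. Within replicate number 1 its ratio of knockout to wild type was 0.725, and within number 2 it was 0.637. The groups did not overlap and were each tight, with means of 22.1 ± 0.599 CPM in the knockout and 32.6 ± 2.11 CPM in the wild type (SD, n = 2 each). The difference in log2(CPM + 1) of -0.54 ± 0.17 (SE; 95% interval -0.94 to -0.14) did not pass (limma adjusted p = 0.143, and 0.0647 with the replicate number as a term).

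Levels of different genes can be compared only per length, and each gene's CPM was therefore divided by the length of its merged annotated exons in kilobases (kb). On this scale Sesn1 made up most of the Sestrin RNA in wild-type cells and Sesn2 most of it in knockout cells. Sesn2 accounted for 53.6% and 67.2% of the summed Sestrin level in knockout libraries, against 7.24% and 15.8% in wild-type libraries. Sesn1 accounted for 42.0% and 29.0% in knockout libraries, against 86.3% and 74.0% in wild-type libraries. Sesn3 held the smallest share in each library, with 4.45% and 3.74% in knockout libraries and 6.42% and 10.2% in wild-type libraries. The sum of the 3 Sestrins was 33.2 and 38.0 CPM per kb in knockout libraries, against 31.7 and 22.0 CPM per kb in wild-type libraries, so the totals of knockout replicate 1 and wild-type replicate 1 were near each other while their makeup was not. The merged exons of Sesn3 span 15269 bases, against 3982 for Sesn1 and 3475 for Sesn2, and its level per kb would be higher if only shorter transcripts were present.

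**Figure D2:**
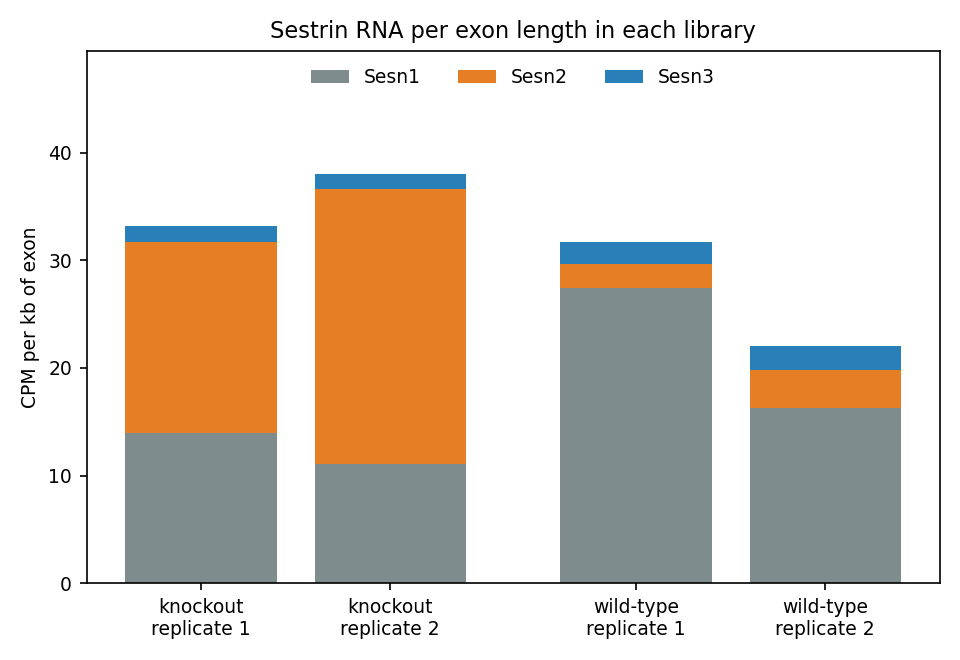
Stacked bars of CPM per kb of merged exon for Sesn1, Sesn2 and Sesn3 in each of the 4 libraries. Sesn2 is the largest part in both knockout libraries (17.8 and 25.6 CPM per kb) and Sesn1 in both wild-type libraries (27.4 and 16.3 CPM per kb).

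No core gene passed the threshold, though Mtor, Rptor and Tsc2 had higher means in the knockout. Mtor, the kinase itself, was at 53.3 and 73.1 CPM in knockout libraries, against 39.8 and 58.0 CPM in wild-type libraries. Within replicate number 1 its ratio of knockout to wild type was 1.34, and within number 2 it was 1.26. Its groups overlapped, replicate 2 was the higher library in both, and the difference in log2(CPM + 1) was 0.37 ± 0.23 (SE; 95% interval -0.17 to 0.91; limma adjusted p = 0.401). Rptor, the scaffold that brings substrates to the kinase, was at 58.1 and 71.8 CPM in knockout libraries, against 43.4 and 63.0 CPM in wild-type libraries. Within replicate number 1 its ratio of knockout to wild type was 1.34, and within number 2 it was 1.14. Its groups also overlapped, with a difference of 0.30 ± 0.21 (SE; 95% interval -0.19 to 0.78; limma adjusted p = 0.452).

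Tsc2, the GTPase-activating subunit that switches off Rheb, was at 71.6 and 89.4 CPM in knockout libraries, against 55.8 and 67.7 CPM in wild-type libraries. The knockout libraries lay above the wild-type ones by a narrow gap, and the difference of 0.38 ± 0.17 (SE; 95% interval -0.03 to 0.78) did not pass (limma adjusted p = 0.266). Tsc1, the stabilising subunit of the same complex, was at 37.1 and 40.2 CPM in knockout libraries, against 39.7 and 40.0 CPM in wild-type libraries. The groups overlapped fully, and the difference of -0.04 ± 0.15 (SE; 95% interval -0.40 to 0.31; limma adjusted p = 0.897) leaves room for a change of either sign within that interval. Mtor, Rptor and Tsc2 were each higher in replicate 2 than in replicate 1 in both groups. Within replicate number 1 the ratio of knockout to wild type was 1.28 for Tsc2 and 0.934 for Tsc1. Within number 2 it was 1.32 for Tsc2 and 1.005 for Tsc1. In the annotation, 693 of the 9620 exon bases of Tsc2 overlap Pkd1 on the opposite strand and 84 of the 13471 exon bases of Rptor overlap Rptoros; the strand setting of the counting is not given in the sources used here, so reads there cannot be told apart. The other 6 genes share no exon sequence with an annotated gene.

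**Figure D3:**
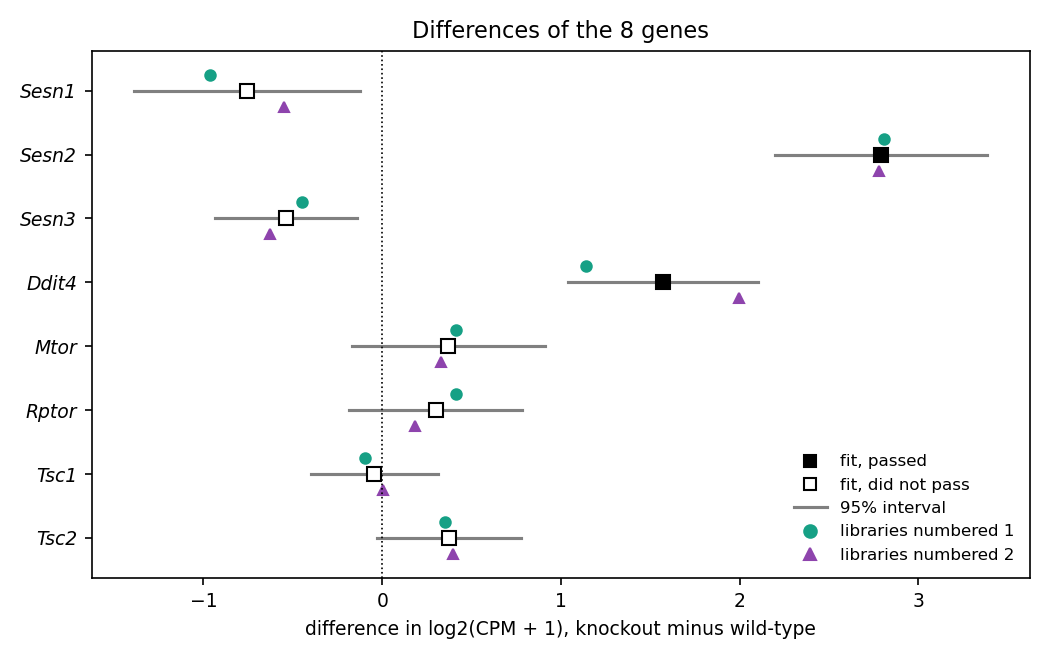
Differences in log2(CPM + 1), knockout minus wild-type, for each gene: squares are the fit (filled where the adjusted p is under 0.05), grey lines its 95% interval, and small symbols the difference within replicate number 1 (circles) and number 2 (triangles). Sesn2 lies at 2.79 with both numbers close beside it, and Ddit4 at 1.57 with its numbers apart on either side.

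Per kb of exon, the order of mean levels in knockout cells was Ddit4 (28.2 CPM per kb), Sesn2 (21.7), Sesn1 (12.5), Tsc2 (8.37), Mtor (6.25), Rptor (4.82), Tsc1 (3.26) and Sesn3 (1.45). Neighbours whose library values overlapped there were Ddit4 with Sesn2 and Mtor with Rptor. In wild-type cells the order was Sesn1 (21.8 CPM per kb), Ddit4 (9.03), Tsc2 (6.42), Mtor (4.84), Rptor (3.95), Tsc1 (3.37), Sesn2 (2.89) and Sesn3 (2.14). Library values overlapped there between Mtor and Rptor, Rptor and Tsc1, and Tsc1 and Sesn2. Sesn2 thus stood seventh of the 8 in wild-type and second in knockout cells, and Ddit4 stood above Sesn2 in each of the 4 libraries.

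The authors' deposited table gives its own test of the same 4 libraries. There an FDR under 0.05 is given for 11.5% of all genes, among them 3 of the 8 in the authors' deposited table: Sesn2 (log2 fold change 2.91, FDR = 3.76e-35), Ddit4 (1.63, FDR = 1.32e-06) and Sesn1 (-0.77, FDR = 0.00241). Mtor, Tsc2 and Sesn3 are given there with FDR values of 0.214, 0.184 and 0.118. The authors' lists labelled with a log2 fold change of 0.5 hold Sesn2 and Ddit4 as higher and Sesn1 as lower. Their lists labelled with 1 hold Sesn2 and Ddit4 as higher. Sesn3 is in none of these lists although its deposited log2 fold change is -0.56, so fold change alone does not set them. The deposited fold changes were matched to within 3.4e-08 by edgeR's likelihood ratio test once the replicate number was a term, which treats same-numbered libraries as pairs.

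Sesn2 (ENSMUSG00000028893) is a protein-coding gene at chr4:132492032-132510501 on the minus strand of GRCm38, and Ddit4 (ENSMUSG00000020108) one at chr10:59949669-59951834, also on the minus strand. Sesn1 (ENSMUSG00000038332) lies at chr10:41809935-41908424 and Sesn3 (ENSMUSG00000032009) at chr9:14275067-14333101, both on the plus strand. The windows around their annotated starts, 250 bases before to 50 bases after, are shown because these are the 4 inhibitors, of which Sesn2 and Ddit4 were called and Sesn1 and Sesn3 were not. The sequences are RefSeq's on GRCm38.p6, 5′ to 3′ on the strand of the gene, and capitals mark matches to any of 5 motifs, searched on both strands. Sesn1 has a pair of annotated starts in that table.

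Sesn2, chr4:132510407-132510706, minus strand: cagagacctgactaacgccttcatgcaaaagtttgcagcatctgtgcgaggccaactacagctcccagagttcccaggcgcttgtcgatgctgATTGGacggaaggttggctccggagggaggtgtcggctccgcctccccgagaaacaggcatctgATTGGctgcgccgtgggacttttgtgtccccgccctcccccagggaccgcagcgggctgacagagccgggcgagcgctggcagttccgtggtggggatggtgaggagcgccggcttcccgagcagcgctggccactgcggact
Ddit4, chr10:59951721-59952020, minus strand: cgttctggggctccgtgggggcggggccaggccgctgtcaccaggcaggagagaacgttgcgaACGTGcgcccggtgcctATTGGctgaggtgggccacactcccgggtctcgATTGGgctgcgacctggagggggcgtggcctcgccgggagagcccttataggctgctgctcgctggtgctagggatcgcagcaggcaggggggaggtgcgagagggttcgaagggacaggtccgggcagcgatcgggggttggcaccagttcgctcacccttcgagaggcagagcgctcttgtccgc
Sesn1, first start, chr10:41810324-41810623, plus strand: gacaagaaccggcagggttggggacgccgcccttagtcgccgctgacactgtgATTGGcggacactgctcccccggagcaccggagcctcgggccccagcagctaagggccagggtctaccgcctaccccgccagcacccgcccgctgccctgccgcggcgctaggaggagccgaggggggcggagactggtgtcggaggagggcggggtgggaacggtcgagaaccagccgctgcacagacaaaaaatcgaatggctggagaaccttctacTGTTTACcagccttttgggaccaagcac
Sesn1, second start, chr10:41887189-41887488, plus strand: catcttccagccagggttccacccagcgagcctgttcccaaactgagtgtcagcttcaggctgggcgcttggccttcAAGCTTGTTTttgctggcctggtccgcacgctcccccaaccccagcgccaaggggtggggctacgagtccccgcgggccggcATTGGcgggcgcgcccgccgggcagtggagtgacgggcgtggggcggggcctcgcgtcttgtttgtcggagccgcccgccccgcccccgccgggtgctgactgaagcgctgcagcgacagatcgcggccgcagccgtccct
Sesn3, chr9:14276051-14276350, plus strand: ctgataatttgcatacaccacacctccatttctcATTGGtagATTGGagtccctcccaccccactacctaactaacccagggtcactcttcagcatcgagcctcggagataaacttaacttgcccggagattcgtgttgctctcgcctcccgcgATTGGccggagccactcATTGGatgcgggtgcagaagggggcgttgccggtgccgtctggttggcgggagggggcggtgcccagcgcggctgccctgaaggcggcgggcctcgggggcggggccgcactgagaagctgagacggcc

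The element that ATF4 reads with a C/EBP partner, TGATGNAA, had 0 matches in the 9 windows of the 8 genes, against 3.97% of all 32817 promoter windows in the table, which says only that these letters are not in windows of this length. The CCAAT box, CCAAT on either strand, was found in 6 of the 9 windows, against 37.4% of all windows: 2 matches each for Sesn2 and Ddit4, 4 each for Sesn3 and Mtor and 1 at each start of Sesn1. The core of the hypoxia response element, ACGTG, was found in Ddit4 and Rptor, against 19.6% of all windows. A FOXO element, GTAAACA, was found at the first start of Sesn1 (3.65% of all windows) and a p53 half-site at its second start (8.36%). The half-site pattern, though not the matched letters, is the same on both strands. The windows of Tsc1 and Tsc2 held none of the 5, and no matches of different motifs overlapped. CCAAT boxes thus stood both in the windows of the genes that rose and in those of Sesn1 and Sesn3.

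Beyond the 8 genes, 90 genes of the pathway and of transcription factors known to act on it were listed by role, of which 82 are in the table. Of these 82, 4 rose and 0 fell, against 1.58% and 0.839% of all genes, and 18 higher and 7 lower genes had an unadjusted p under 0.05, against 11% and 9.79% of all genes. Their median difference in log2(CPM + 1) was 0.04, against -0.02 for all genes. The list was drawn up with results of these data known, and its counts describe it only.

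Among substrates and effectors of mTORC1, 2 of 14 rose and 0 fell, against 1.58% and 0.839% of all genes. The median difference of the 14 was 0.31. The limma fit with the replicate number as a term called 5 of the 14 higher and 0 lower, against 11.7% of all genes called. Grb10, an adaptor that mTORC1 phosphorylates and that damps insulin receptor signalling, was at 193 and 238 CPM in knockout libraries, against 24.8 and 32.9 CPM in wild-type libraries. The knockout libraries were far above the wild-type ones, with a ratio of 7.47 and a difference of 2.86 ± 0.18 (SE; limma adjusted p = 0.00214). Eif4ebp1, the translation repressor 4E-BP1 that mTORC1 inactivates, was at 138 and 139 CPM in knockout libraries, against 64.2 and 65.0 CPM in wild-type libraries. Replicates were nearly equal in both groups, with a ratio of 2.14 and a difference of 1.09 ± 0.13 (SE; limma adjusted p = 0.0110). Without knockout replicate 2 both missed the threshold (limma adjusted p = 0.0608 for Grb10 and 0.161 for Eif4ebp1), and without knockout replicate 1 so did Eif4ebp1 (0.0708).

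Among AMPK subunits and kinases, 1 of 8 rose and 0 fell, against 1.58% and 0.839% of all genes. The median difference of the 8 was -0.08. The limma fit with the replicate number as a term called 2 of the 8 higher and 1 lower, against 11.7% of all genes called. Prkaa1, the catalytic alpha 1 subunit of the energy sensor AMPK, was at 67.8 and 81.1 CPM in knockout libraries, against 43.5 and 41.6 CPM in wild-type libraries. The groups did not overlap and the difference was 0.79 ± 0.15 (SE; limma adjusted p = 0.0467), just inside the threshold. It missed it by edgeR (adjusted p = 0.0573), by limma-voom (0.0821), and without knockout replicate 1 (0.118) or 2 (0.446). It passed by DESeq2 (adjusted p = 0.00192) and with the replicate number as a term, by limma (0.0111) and by edgeR (0.00820).

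Of the transcription factors known to act on the 8 genes, 1 of 11 rose and 0 fell, against 1.58% and 0.839% of all genes. The median difference of the 11 was 0.11. Of the 11, 8 had a positive and 3 a negative difference, against 7376 and 7879 of all 15255 genes. The limma fit with the replicate number as a term called 3 of the 11 higher and 0 lower, against 11.7% of all genes called. Ddit3, which encodes the stress factor CHOP, was at 49.5 and 57.3 CPM in knockout libraries, against 17.0 and 18.0 CPM in wild-type libraries, a difference of 1.55 ± 0.17 (SE; limma adjusted p = 0.00879). The ratio of the means was 3.05, and the call was lost without knockout replicate 1 (adjusted p = 0.0626) or 2 (0.161). Of the 1713 exon bases of Ddit3, 81 overlap Mars and Gm4189 on the opposite strand and 105 overlap a second annotated Ddit3 gene on the same strand, so reads there are uncertain. Atf4 was at 488 and 444 CPM in knockout libraries, against 309 and 306 CPM in wild-type libraries (0.60 ± 0.13 SE, limma adjusted p = 0.0663). Trp53, the gene of p53, was at 260 and 303 CPM in knockout libraries, against 210 and 204 CPM in wild-type libraries (0.44 ± 0.14 SE, limma adjusted p = 0.143). Neither passed, and their part in the levels of the 8 genes was not tested.

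In the other lists 0 genes passed over all genes, and the 2 with the smallest p in each are given as values. Of the other mTORC1 and mTORC2 subunits, 7 were measured, with a median of -0.03. Deptor, an inhibitory subunit of both complexes, was at 19.0 and 15.8 CPM in knockout libraries, against 40.0 and 26.2 CPM in wild-type libraries (difference -0.86 ± 0.24, SE; limma adjusted p = 0.113). Prr5, a subunit of mTORC2, was at 15.4 and 12.9 CPM in knockout libraries, against 28.0 and 22.4 CPM in wild-type libraries (-0.78 ± 0.22, SE; adjusted p = 0.113). Both were lower in both knockout libraries than in either wild-type library, and both passed with the replicate number as a term (limma adjusted p = 0.0187 for Deptor and 0.0293 for Prr5). Deptor shares 303 exon bases with Gm9920 on the opposite strand. Partners of the TSC complex and Rheb, 3 measured, had a median of -0.19; Tbc1d7 differed by -0.19 and Rhebl1 by -0.23, with adjusted p-values of 0.673 and 0.705 by limma.

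GATOR1, GATOR2, KICSTOR and the amino acid sensors, 15 genes that include the direct partners of the Sestrins, had a median difference of 0.03. Castor2, a paralogue of the arginine sensor, was at 6.65 and 6.22 CPM in knockout libraries, against 14.4 and 14.0 CPM in wild-type libraries, with replicates nearly equal in both groups (-1.03 ± 0.25, SE; limma adjusted p = 0.0815). Mios, a GATOR2 subunit, was at 44.5 and 65.7 CPM in knockout libraries, against 33.4 and 37.1 CPM in wild-type libraries (0.60 ± 0.21, SE; adjusted p = 0.163). The Rag, Ragulator and folliculin list, 13 genes, had a median of -0.05. Fnip2, a partner of folliculin, was at 34.6 and 36.4 CPM in knockout libraries, against 22.5 and 21.5 CPM in wild-type libraries (0.66 ± 0.17, SE; limma adjusted p = 0.0885). Lamtor4, a Ragulator subunit, was at 61.9 and 38.1 CPM in knockout libraries, against 79.3 and 99.3 CPM in wild-type libraries (-0.86 ± 0.25, SE; adjusted p = 0.130).

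The PI3K and AKT list, 11 genes, had a median difference of 0.08. Pik3cb, a catalytic subunit of PI3K, was at 42.8 and 42.7 CPM in knockout libraries, against 16.2 and 28.5 CPM in wild-type libraries (0.96 ± 0.26, SE; limma adjusted p = 0.109). Irs2, an adaptor of the insulin receptor, was at 23.8 and 37.1 CPM in knockout libraries, against 12.7 and 21.1 CPM in wild-type libraries (0.82 ± 0.30, SE; adjusted p = 0.191). Castor2, Mios, Fnip2, Pik3cb and Irs2 passed with the replicate number as a term, with limma adjusted p-values from 0.0204 to 0.0392, as 14 higher and 4 lower of the 82 genes did, against 11.7% of all genes.

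**Figure D4:**
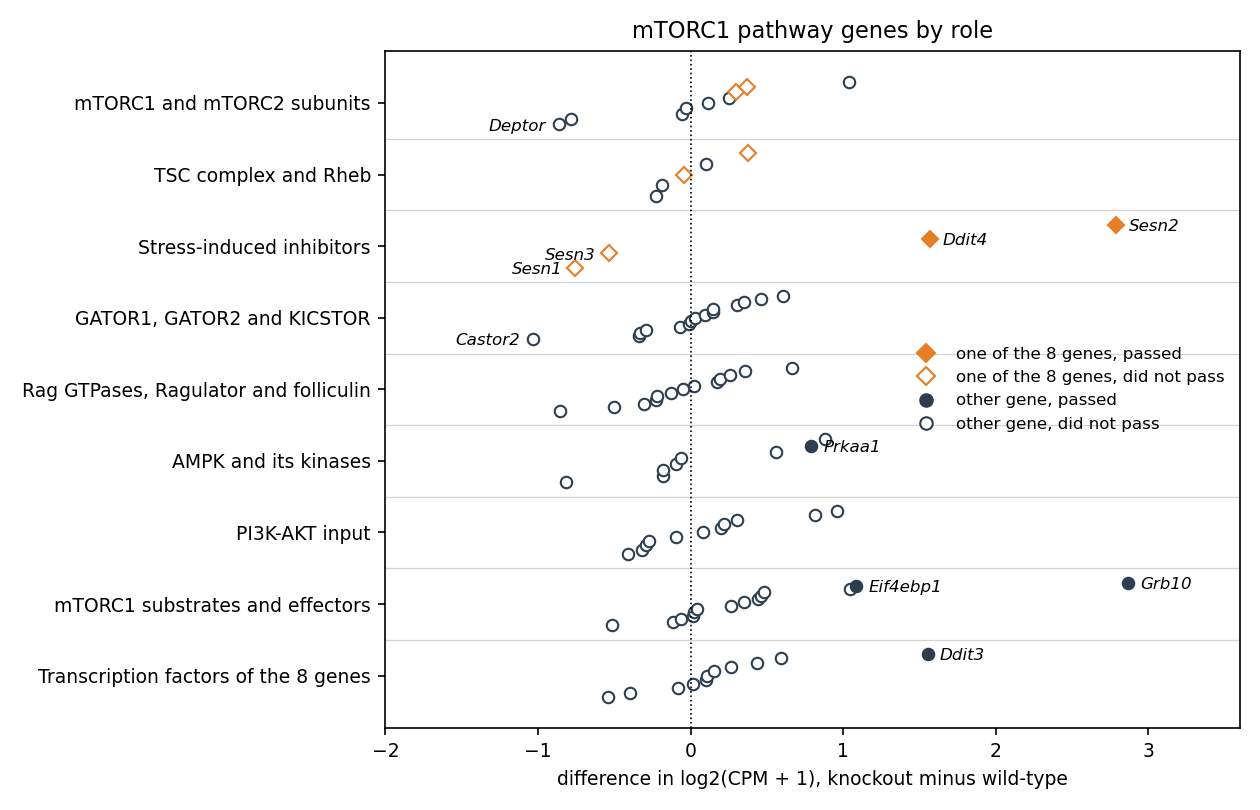
Differences in log2(CPM + 1), knockout minus wild-type, of the 8 genes (diamonds) and the other measured pathway genes (circles) by role, filled where the adjusted p is under 0.05. Grb10 at 2.86 lies beside Sesn2 at 2.79, and Castor2 at -1.03 is the lowest of the 90 genes drawn.

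The genes whose profile over the 4 libraries was nearest to that of Sesn2 were Grb10, Asns and Dnase1l3, at distances of 0.202, 0.210 and 0.244. Distance here is the Euclidean distance of log2(CPM + 1) centred on each gene's mean, over the 13795 genes that averaged 1 CPM or more. Asns, which encodes asparagine synthetase, was at 335 and 475 CPM in knockout libraries, against 39.9 and 59.9 CPM in wild-type libraries. As with Sesn2, replicate 2 was the higher library in both groups. Dnase1l3, a secreted DNase, was at 25.4 and 43.6 CPM in knockout libraries, against 3.40 and 5.93 CPM in wild-type libraries. The nearest to Ddit4 were Gm12551, Mt2 and Rsad2, at 0.120, 0.158 and 0.158; Mt2, a metallothionein gene, was at 11.3 and 18.9 CPM in knockout libraries, against 4.70 and 3.92 CPM in wild-type libraries. The nearest to Sesn1 were 2310026L22Rik, Gm26597 and Klhl30 and the nearest to Sesn3 were Coq10a, Zmat1 and Bco2, at distances of 0.0328 to 0.0738 and 0.0319 to 0.0501. Some of these were near the floor. 2310026L22Rik was at 0.713 and 0.362 CPM in knockout libraries, against 2.26 and 0.949 CPM in wild-type libraries. Bco2 was at 0.891 and 0.784 CPM in knockout libraries, against 1.64 and 1.78 CPM in wild-type libraries. At such levels the 1 CPM added before the log shrinks the differences. Over 4 libraries these distances are a description only.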

How the data were processed

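RNA-seq of sorted LSK cells was deposited for 4 libraries. Per the submitters' processing notes, STAR 2.7.10a, featureCounts 2.0.1 and GRCm38.p6 were used; the strand setting is not given in the sources used here. The deposited signal columns hold CPM scaled by the authors to effective library sizes; all values gave whole reads (100% within 0.01). The authors' deposited table also holds a log2 fold change, a test score, a p-value and an FDR per gene.

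Here log2(CPM + 1) was tested with limma 3.58.1 (R 4.3.3; trended, robust; knockout minus wild type) over all 15255 genes, with Benjamini-Hochberg adjusted p under 0.05 as the threshold. edgeR 4.0.16, DESeq2 1.42.0, limma-voom, other scaling, filter and pseudocount settings, and each library left out, were alternatives. The scripts were tested on simulated data. The design had assumed CPM columns; the same test served the deposited signal. Same-numbered libraries deviated together (correlation 0.286 over 13795 genes), the number coincided with sex-linked RNA, and the authors' deposited comparison is called paired, but the labels do not say what a number shares. The main test has no term for the number. The fit with it is given where it changes the call of any of the 8 genes, and for the pathway lists as counts or for single genes. Beside the 8 genes, the text names every listed pathway gene that passed and, in lists where none did, the 2 with the smallest p, plus the 3 nearest profiles. Atf4 and Trp53 are also named, because the opening gives their proteins as acting on Sesn2 and Ddit4. The members and lists were chosen with earlier results of these data known. Pathway genes Ddit4l, Prkag3, Irs1, Pik3r2, Rps6kb2, Eif4ebp3, Trp63 and Trp73, and the marker Ly6g, were not analysed here. The summed level of the erythroid markers is not reported here.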

Additional observations from a re-analysis of the deposited data

How the results depend on the processing

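Sesn2 kept its direction and passed under every alternative run except without knockout replicate 2, with leave-one-out values from 2.52 to 3.06 on the log2 scale. Ddit4 kept its direction and missed the threshold by limma-voom (1.62) and without either knockout library (leave-one-out 1.31 to 1.83). Sesn1 passed with the replicate block by limma (-0.76) and by edgeR (-0.77), and its leave-one-out values ran from -1.13 to -0.39. Tsc1 turned to 0.013 without knockout replicate 1 (leave-one-out -0.10 to 0.013), and Rhebl1 to 0.13 without wild-type replicate 1 (leave-one-out -0.58 to 0.13). The cause of these changes was not tested.

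All genes called numbered 369 in the main test, 117 by limma-voom, 1214 by DESeq2, 1779 with the replicate block by limma and 1789 by edgeR with it, and 0 to 1068 with 1 library left out. Members called numbered 2 in the main test, 1 by limma-voom and 0 to 3 with 1 library left out. Pathway genes called numbered 4 in the main test, 13 by DESeq2, 18 with the replicate block by limma and 17 by edgeR with it, and 0 to 8 with 1 library left out. A fit with 1 library left out assumes that the lone library varies like the others. The members had at least 141 reads in each library, and each group had 2 libraries.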
